A study of Mus musculus with 49 samples.

Results

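The genes described here are 10 mouse genes of the fat cell: Cidea, Cidec, Adipoq, Fabp4, Plin1, Lep, Cfd, Retn, Lipe and Ucp1. They were listed by name as genes of white and brown fat, and Cidea leads the list because it was chosen by its measured difference between arsenate and water bladders at 12 weeks, at 0.5 and 50 ppm, in these same arrays. Each gene was read from its single-gene probe set of highest mean signal. Of the 10 genes, 8 had such a probe set among the 18194 genes measured, and 7 of those were among the 14625 genes kept by a filter on low signals. No probe set was assigned to Plin1 or Cfd in the annotation used, so neither was analysed here. Ucp1 was measured but exceeded the array's own 40th percentile in 2 of 49 arrays, against the 4 arrays the filter required, and was not tested.

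The arrays were Affymetrix Mouse430_2 chips of whole urinary bladder from female C57Bl/J mice, with 1 mouse per array and no pooling. The mice drank water with arsenate, the pentavalent oxyanion of arsenic, at 0.5, 2, 10 or 50 ppm, or drank water alone, for 12 weeks (25 mice, age 155 days, 5 per group) or for 1 week (24 mice, age 76 days, 4 at 0.5 ppm and 5 in each other group). The mice of a group shared the first number of their labels, whose meaning was not given, so that number and dose cannot be told apart. The deposited signals had been scaled, with a trimmed mean of each array between 500.003 and 500.004. Levels below are log2(signal + 16), a scale with its floor at 4, and a level under 5 is called near the floor. The RNA integrity number was 9.3 to 9.8 at 12 weeks and 7.2 to 9.7 at 1 week, with 2 values missing.

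White fat cells keep triglyceride in a single large lipid droplet and secrete hormones such as adiponectin, leptin and, in mice, resistin. Brown fat cells burn lipid for heat through the uncoupling protein Ucp1. Cidea and Cidec belong to the CIDE family of lipid droplet proteins, which join droplets into larger ones, and in mice Cidea is best known from brown fat. The bladder wall has a urothelium, a connective tissue layer and smooth muscle, with fat on its outer surface, so that fat transcripts in a whole bladder can depend on how much of that fat is dissected with it. In whole-organ RNA, fewer cells of a type and less RNA per cell cannot be told apart.

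To show the regulatory sequence of the genes whose levels vary most below, 250 bases before the RefSeq start (GRCm38.p6) are printed 5′ to 3′ on the gene's strand for Adipoq, Retn, Lep and Cidec. The windows are chr16:23146286-23146535 on the plus strand for Adipoq, chr8:3655520-3655769 on the plus strand for Retn, chr6:29059971-29060220 on the plus strand for Lep, and chr6:113434765-113435014 on the minus strand for Cidec, the last at the one of 2 annotated starts that lies within the gene. Capitals mark matches on either strand to TTNNGCAA, a spelling of the site bound by C/EBP factors, which drive fat cell differentiation together with PPARG.
Adipoq: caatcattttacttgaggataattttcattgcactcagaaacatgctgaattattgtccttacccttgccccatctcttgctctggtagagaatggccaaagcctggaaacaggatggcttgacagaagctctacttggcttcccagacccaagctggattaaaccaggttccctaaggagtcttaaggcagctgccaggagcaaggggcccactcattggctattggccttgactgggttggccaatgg
Retn: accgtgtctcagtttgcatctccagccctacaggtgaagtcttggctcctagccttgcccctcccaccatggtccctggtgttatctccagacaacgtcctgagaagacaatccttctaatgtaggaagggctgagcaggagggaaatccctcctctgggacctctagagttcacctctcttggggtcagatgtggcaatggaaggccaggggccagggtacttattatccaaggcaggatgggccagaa
Lep: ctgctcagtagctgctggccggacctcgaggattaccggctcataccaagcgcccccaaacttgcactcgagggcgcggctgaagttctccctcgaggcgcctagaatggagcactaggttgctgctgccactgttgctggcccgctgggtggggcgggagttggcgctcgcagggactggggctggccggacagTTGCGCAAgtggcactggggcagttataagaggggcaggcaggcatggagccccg
Cidec: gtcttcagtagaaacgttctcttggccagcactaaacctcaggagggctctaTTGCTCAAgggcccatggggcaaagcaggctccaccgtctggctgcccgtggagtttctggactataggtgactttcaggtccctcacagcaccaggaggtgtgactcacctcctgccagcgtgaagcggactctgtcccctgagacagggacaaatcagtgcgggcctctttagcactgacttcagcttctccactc
One match lay 55 bases before the Lep start and one 198 bases before this Cidec start, and the Adipoq and Retn windows held none. For 8 of the 10 genes 10 RefSeq windows were found, and 3 of these windows (of Lep, Cidec and Plin1, the last with 2 matches) held a match. The window at the other Cidec start held none. Of all 32851 promoter windows of this length, 9.56% held one. One spelling of the direct repeat DR1, the type of site bound by PPARG, was in none of the members' windows and in 0.0335% of all windows. These are matches of letters only.

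Adipoq, the gene of the fat hormone adiponectin, lay at the 97.9th percentile of all genes by its mean level of 13.19, and Fabp4, the fatty acid carrier of fat cells, at the 99.7th with a mean level of 14.71. Retn, the resistin gene, averaged 11.61, Cidec 10.07, Lipe, the hormone-sensitive lipase, 9.72, Cidea 7.12 and Lep, the leptin gene, 6.44. Ucp1 averaged 4.98, with a highest value of 6.67, and 3 other genes of the brown fat list, Otop1, Zic1 and Lhx8, averaged 4.82, 4.63 and 4.66 and did not pass the filter either. The defining brown fat marker Ucp1 was near the floor or little above it (group means 4.55 to 5.56), while 9 of the 13 brown fat list genes passed the filter, among them Prdm16 at a mean of 8.34 and Cox7a1 at 7.95. Fabp4 is also made by endothelial cells and macrophages, and levels of different probe sets are not strictly comparable.

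Retn, Cidec, Lep and Adipoq varied far more between mice of the same group than most genes did. The pooled within-group SD of the log2 level was 1.02 for Retn, 0.960 for Cidec, 0.891 for Lep and 0.872 for Adipoq, which placed them at the 99.8th, 99.7th, 99.5th and 99.4th percentiles of the genes kept, against a median of 0.258. It was 0.475 for Lipe and, below that median, 0.220 for the Fabp4 probe set of highest mean. The other Fabp4 probe sets, of lower signal, had SDs of 0.39, 0.46 and 0.36, above that median. Adipoq ranged from 11.44 to 14.86 over the 49 bladders, 10.8-fold on the signal + 16 scale, and Cidec from 8.26 to 12.64, 20.8-fold. Within the 5 mice given 2 ppm for 12 weeks, Adipoq was 13.53, 14.66, 11.99, 14.33 and 11.67, almost the whole range of the study inside 1 group. This was the widest group, with an SD of 1.348, and the narrowest was 50 ppm for 1 week, with an SD of 0.401.

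**Figure D1:**
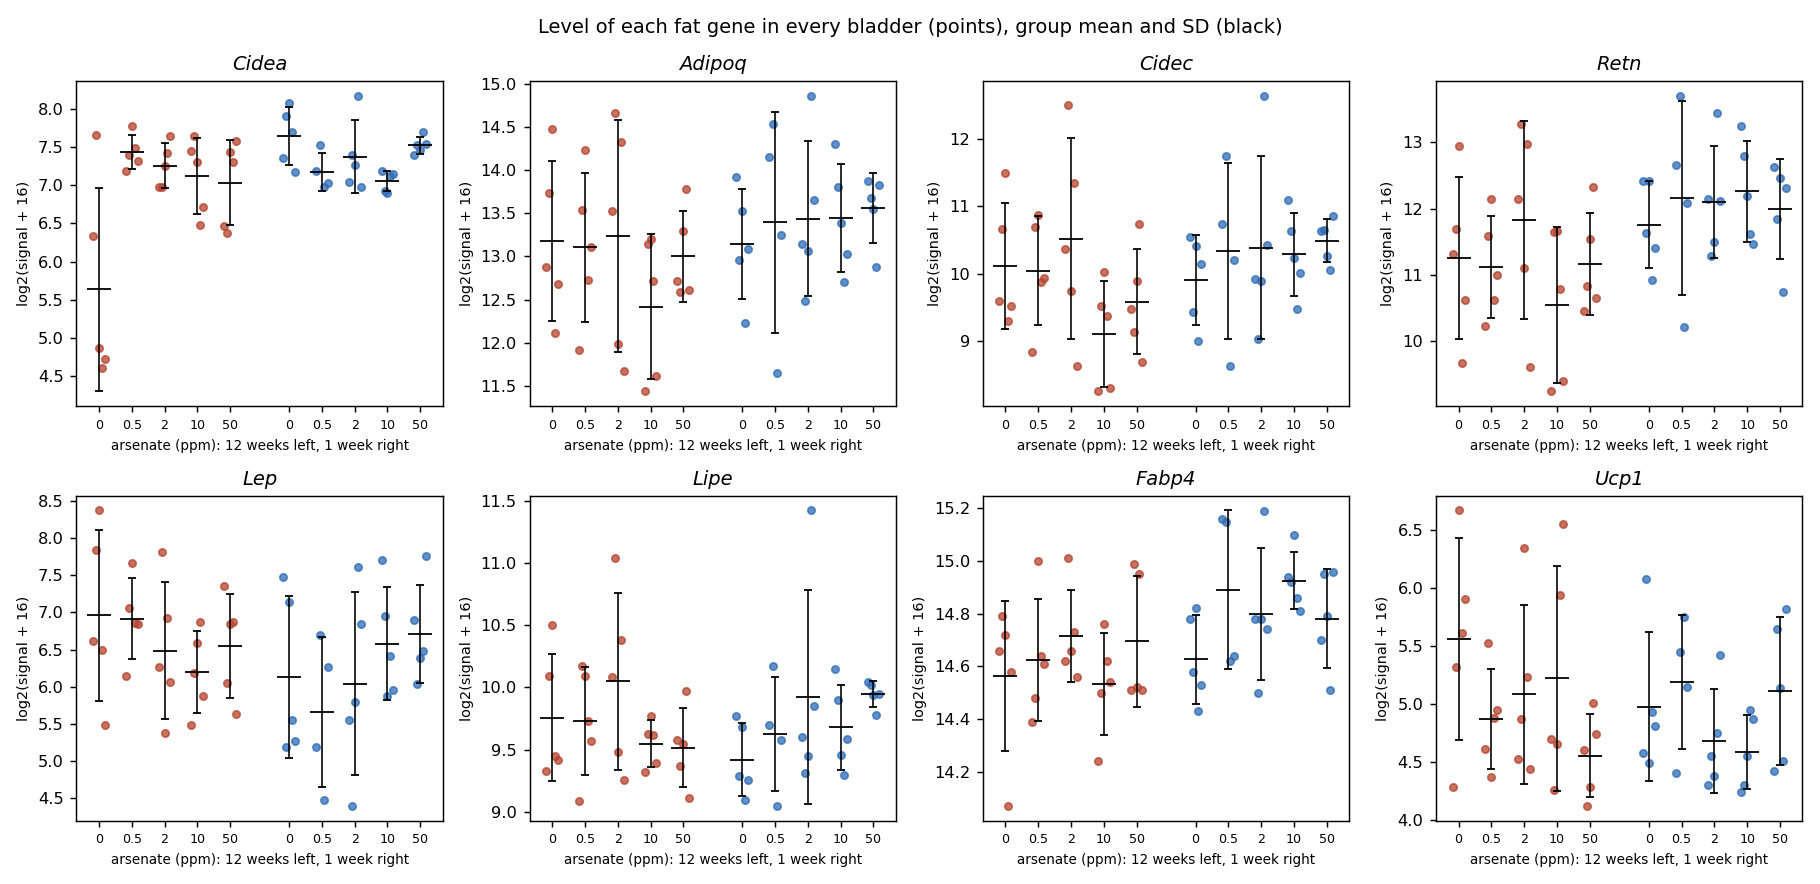
Level of each measured fat gene, log2(signal + 16), in every bladder, by arsenate dose (0 is water), with the 12-week groups in red on the left of each panel and the 1-week groups in blue on the right. Black bars are group means and SDs (n = 4 at 0.5 ppm for 1 week, 5 elsewhere). The Adipoq panel is widest at 2 ppm for 12 weeks and narrowest at 50 ppm for 1 week, while Cidea has 3 points under 5, each a 12-week water mouse.

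The white fat genes varied together from mouse to mouse. With each group's mean subtracted, Pearson's r with Adipoq over 49 bladders was 0.96 for Retn, 0.95 for Cidec, 0.89 for Lipe, 0.76 for Lep and 0.71 for Fabp4, each with a two-sided permutation p of 1e-05, the smallest that 100000 resamples can give, and 1.4e-05 after Benjamini-Hochberg adjustment over 7 genes. Spearman's rho for Cidec was 0.97. The relation held at each harvest: for Cidec r was 0.95 at 12 weeks (25 arrays) and 0.96 at 1 week (24 arrays). Leaving out the 2 arrays farthest from the median of Cidec left r at 0.96. The 15 pairs among Adipoq, Cidec, Fabp4, Lep, Retn and Lipe had r of 0.52 to 0.96, with a median of 0.79. Ucp1 had r of -0.10 with Adipoq.

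Ranked against all 14624 other genes by r with Adipoq, Retn was 1st and Cidec 2nd, followed by Ces1f, Ces1d, Adig, Plaat3, Orm1, Slc7a10, Cyp2e1 and Slc36a2 at 0.95 to 0.91. Ces1f and Ces1d are carboxylesterases, and Adig (adipogenin) and Plaat3, a phospholipase, are known from fat cells. Lipe ranked 12, Lep 49 and Fabp4 69, and Cidea ranked 3327. All 4 Fabp4 probe sets followed Adipoq, with r of 0.71, 0.68, 0.52 and 0.56, while the second Lipe probe set averaged 4.83, near the floor, and had r of 0.04. The mean of the white fat list without the members had r of 0.93 with Adipoq over 46 bladders, the fatty acid uptake and synthesis list 0.90, the urothelium list 0.11 (adjusted p 0.627, permutation test over 11 lists) and the smooth muscle list -0.29 (adjusted p 0.323, same test).

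Of the brown fat list, 9 genes passed the filter and their relation to Adipoq was mixed. Cox8b, a heart, muscle and brown fat subunit of cytochrome oxidase, had r of 0.83 with Adipoq and ranged from 4.40 to 10.23. Ebf2 and Slc27a2 had r of 0.39 and 0.32, and Prdm16, Ppargc1a, Dio2, Cox7a1 and Elovl3 had 0.16, 0.11, 0.13, 0.10 and -0.11. Of the lipid droplet genes outside the list of 10, Pnpla2, the first lipase of triglyceride breakdown, had r of 0.86, its inhibitor G0s2 0.77, its coactivator Abhd5 0.72 and Plin4 0.55. Plin3 and Cideb, the CIDE gene known from liver and gut, had 0.17 and 0.04. The genes of this paragraph were picked after their values were seen, and the values are descriptions over 49 bladders that share the authors' scaling.

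Cidea showed little of this pattern. In the 5 water mice of 12 weeks its level was 6.33, 7.66, 4.87, 4.60 and 4.72, so that 3 of them were near the floor, with signals of 13.22, 8.18 and 10.38. The other 46 bladders lay between 6.33 and 8.17. The same 5 mice had Adipoq levels of 12.88, 13.73, 14.47, 12.11 and 12.68 and Cidec levels of 9.60, 10.67, 11.49, 9.30 and 9.52. One of the 3 mice with Cidea near the floor thus had the highest Adipoq and Cidec of its group, and another had the lowest. Their RNA integrity number was 9.6 each, against 9.4 and 9.7 in the other water mice of that harvest, and their macrophage list averaged 10.54, 10.53 and 10.67, against 10.51 and 10.66. The endothelium list averaged 8.36, 8.37 and 8.52 in the 3 mice, against 8.47 and 8.74. Some lists separated them, in both directions. The fibroblast list was lower, at 12.46, 12.74 and 12.67, against 12.81 and 13.02. So was the nerve and Schwann list, at 8.13, 7.88 and 7.40, against 8.19 and 8.31. The brown fat list without the members was higher, at 7.42, 7.13 and 7.08, against 6.65 and 6.97. Ucp1 itself, a low signal, was higher too, at 6.67, 5.61 and 5.91, against 4.28 and 5.32. The skeletal muscle list was narrowly higher, at 8.89, 9.03 and 8.760, against 8.68 and 8.759. Their part in the Cidea levels was not tested. Because those 3 arrays stand apart, the relation of Cidea to the fat genes is given first without them and then with them.

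Over the 46 bladders above 5, with group means subtracted, r between Cidea and Adipoq was 0.23 (two-sided permutation p 0.137, adjusted p 0.297 over 7 genes), and rho was 0.24. For Cidec it was 0.23, for Retn 0.21, for Lipe 0.29, for Lep 0.15, for Fabp4 0.12 and for Ucp1 -0.08, with adjusted permutation p of 0.297 to 0.680. With all 49 bladders r of Cidea with Adipoq was 0.20 (permutation p 0.240, adjusted 0.352). Ranked against all other genes by r with Cidea, the 6 white fat genes lay at ranks 1267 to 4582 of 14624 over the 46 bladders and 1630 to 3085 over all 49, with Lipe at 1267 against 2828 and Fabp4 at 4582 against 1630. A p that misses the threshold does not show that Cidea is independent of the fat level, and the difference from the 0.71 to 0.96 of the white fat genes with Adipoq was not itself tested.

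Within the 1-week harvest, which had no array near the floor, r of Cidea with Adipoq was 0.35 with group means subtracted (permutation p 0.166, adjusted 0.233). With Lipe it was 0.60 (permutation p 0.0548, adjusted 0.212). These values rested on few mice: without the 2 arrays farthest from the median of the fat gene, r was 0.05 for Adipoq and 0.16 for Lipe. One mouse given 2 ppm for 1 week had the highest level of the study for Cidea (8.17), Cidec (12.64), Adipoq (14.86), Lipe (11.42) and Fabp4 (15.19). Its RNA integrity number was 7.2, as was that of replicates 3 and 5 of its group, the lowest value measured. In the 12-week harvest without the 3 arrays near the floor, r of Cidea with Adipoq was 0.16 with group means subtracted (22 arrays, permutation p 0.439).

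**Figure D2:**
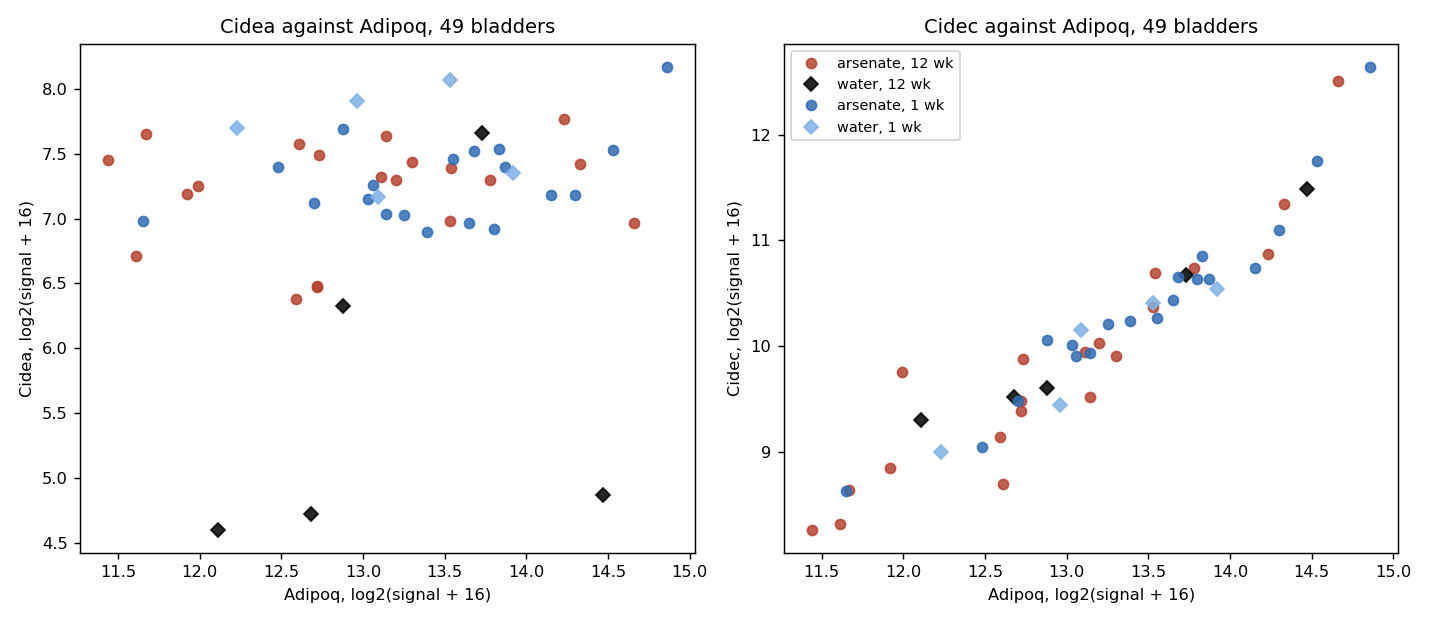
Levels of Cidea (left) and Cidec (right) against Adipoq, all log2(signal + 16), in 49 bladders, with colour and symbol by harvest and by arsenate or water. Cidec lies along a line with Adipoq (r 0.95 with group means subtracted), whereas Cidea lies between 6.33 and 8.17 at any Adipoq level, apart from 3 water mice of 12 weeks at 4.60 to 4.87.

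The genes most like Cidea by r over the 49 bladders were Apoe, a lipid transport protein abundant in macrophages (0.62), Dennd3 (0.59), Htra1, Adgrl4, Slc29a1 and Lmcd1 (0.57 each), Unc50 (0.56), Ahsa1 and H2-Ab1 (0.55 each) and Sem1 (0.54). Without the 3 low arrays Unc50 had 0.33 and Adgrl4 0.39, while H2-Ab1, an MHC class II chain, had 0.63 and Apoe 0.58. In the 1-week harvest alone r of these genes was lower, from -0.09 for Unc50 to 0.44 for Dennd3, with Apoe at 0.38 and H2-Ab1 at 0.33. Against 11 marker lists over 46 bladders, Cidea had its highest r with the macrophage list, 0.48 (permutation p 0.00398, adjusted 0.0438), and rho was 0.44 with an adjusted permutation p of 0.0979. Without the 2 arrays farthest from the median r was 0.44. The white fat list had r of 0.28 with Cidea (permutation p 0.0812, adjusted 0.199). These 46 bladders were selected by Cidea's own level, and r with the lists over all 49 was not computed. The 3 left out had macrophage list averages of 10.54, 10.53 and 10.67, against 10.51 and 10.66 in the other water mice of 12 weeks.

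**Figure D3:**
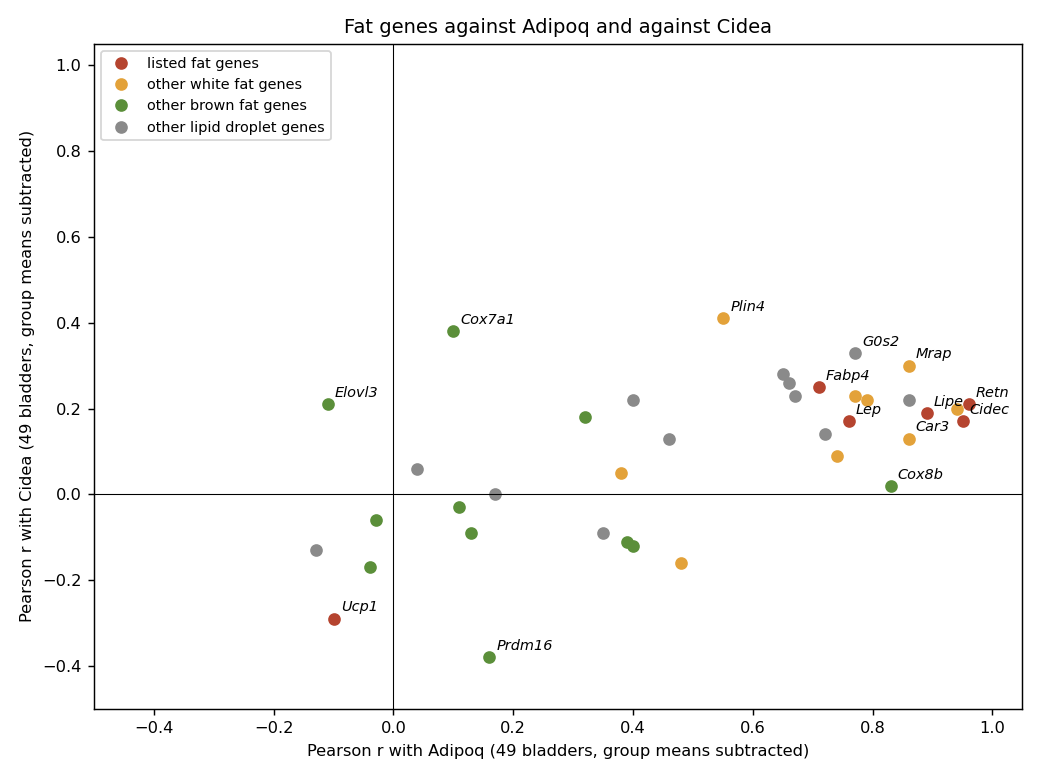
Each point is a gene of the white fat, brown fat or lipid droplet list, placed by Pearson's r with Adipoq (horizontal) and with Cidea (vertical) over 49 bladders with group means subtracted. Cidec, Fabp4, Lep, Retn and Lipe (red, on the right) lie at 0.71 to 0.96 on the horizontal axis and at 0.17 to 0.25 on the vertical one, and Acvr1c, Pnpla3 and Plin4 of the longer white fat list lie at 0.38, 0.48 and 0.55 on the horizontal one.

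Arsenate at 12 weeks was compared with water of the same harvest in limma, with p-values adjusted over all 14625 genes and a gene called at an adjusted p under 0.05. The 0.5 and 50 ppm comparisons served to choose Cidea, and the 2 and 10 ppm ones share their water mice, so its values are a description. Cidea was 7.19, 7.39, 7.77, 7.49 and 7.32 at 0.5 ppm, 6.98, 6.97, 7.25, 7.42 and 7.65 at 2 ppm, 7.45, 7.64, 7.30, 6.48 and 6.71 at 10 ppm, and 6.47, 6.38, 7.44, 7.30 and 7.58 at 50 ppm, against 6.33, 7.66, 4.87, 4.60 and 4.72 in water. Each arsenate group overlapped the water group, since 1 water mouse, at 7.66, lay among the 0.5 ppm mice and above every mouse of the other 3 doses. The difference in means was 1.80 at 0.5 ppm, 1.62 at 2 ppm, 1.48 at 10 ppm and 1.40 at 50 ppm on the log2 scale (SE 0.40 each). Differences among the 4 doses were not tested. The poly-A spike level, a mean of control probe sets, also differed between these groups. It was 9.46 to 10.01 at 10 ppm and 9.51 to 10.46 at 50 ppm, against 10.21 to 11.17 in water. At 0.5 and 2 ppm it was 9.90 to 10.52 and 10.09 to 10.33. Its part in the 12-week differences cannot be fully told apart from dose.

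With the Adipoq level of each array as a covariate the same differences in Cidea were 1.80, 1.61, 1.57 and 1.42, and with the mean of the 6 measured white fat genes they were 1.80, 1.60, 1.56 and 1.43, both in the order 0.5, 2, 10 and 50 ppm. Adipoq itself differed from water by -0.07, 0.06, -0.76 and -0.18 at these doses and had an r of 0.20 with Cidea, so these fits are no test of the part of fat content in the Cidea difference.

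At 1 week, whose arrays were not used to choose it, Cidea was not called at any dose. It was 7.18, 7.53, 6.98 and 7.03 at 0.5 ppm, 7.04, 7.40, 7.26, 8.17 and 6.97 at 2 ppm, 7.18, 6.92, 6.90, 7.12 and 7.15 at 10 ppm, and 7.40, 7.52, 7.46, 7.69 and 7.54 at 50 ppm, against 7.35, 7.91, 8.07, 7.70 and 7.17 in water. The group means lay below water at every dose, the opposite sign to 12 weeks, and all groups overlapped water. The difference was -0.47 ± 0.21 (SE) at 0.5 ppm (limma adjusted p 0.355), -0.27 ± 0.19 at 2 ppm (limma adjusted p 0.912), -0.59 ± 0.19 at 10 ppm (limma adjusted p 0.121) and -0.12 ± 0.19 at 50 ppm (limma adjusted p 0.867). The 10 ppm difference passed the threshold with array weights, at a limma adjusted p of 0.0435. The 12-week difference from water minus the 1-week one was 2.26 at 0.5 ppm, 1.89 at 2 ppm, 2.07 at 10 ppm and 1.52 at 50 ppm. In those interaction comparisons 4.61%, 0%, 1.37% and 7.36% of all genes were called, and the values for Cidea again rest on the water mice of 12 weeks.

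None of the 6 other fat genes tested was called at any dose in either harvest. Of 48 comparisons in limma, 0 had an adjusted p under 0.05 and 1 had an unadjusted p under 0.05, Fabp4 at 10 ppm for 1 week, at 0.30 ± 0.12 (SE, adjusted p 0.204). At 12 weeks, 0.526% of all genes were called at 0.5 ppm, 0.0137% at 2 ppm, 0.335% at 10 ppm and 4.06% at 50 ppm. At 1 week 0.0479% were called at 0.5 ppm, 0% at 2 ppm, 0.779% at 10 ppm and 0.335% at 50 ppm, so a count of 0 of 6 is near the background in each comparison. At an unadjusted p under 0.05 the shares of all genes were 19%, 9.91%, 16% and 24.1% at 0.5, 2, 10 and 50 ppm for 12 weeks, and 12.5%, 5.93%, 17.1% and 11.6% for 1 week. At 2 ppm for 1 week 0 genes were called by limma, and 867 of 14625 had an unadjusted p under 0.05.

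The mouse-to-mouse spread set wide limits on these differences. For Adipoq the 95% interval was -1.12 to 0.98 at 0.5 ppm, -0.99 to 1.11 at 2 ppm, -1.80 to 0.29 at 10 ppm and -1.22 to 0.87 at 50 ppm at 12 weeks, so sizeable changes in either direction were not detectable with 5 mice per group. The lowest difference was that of Cidec at 10 ppm for 12 weeks, -1.01 ± 0.54 (SE, limma adjusted p 0.356), where 0 of 5 arsenate mice lay above the water mean. Lipe at 50 ppm for 1 week was the one comparison of the 48 without overlap. Of all genes, 3.95%, 2.1%, 3.2% and 5.85% had groups that did not overlap at 0.5, 2, 10 and 50 ppm for 12 weeks, and 6.76%, 1.61%, 5.7% and 2.52% for 1 week, so 1 of 48 was not above the background. Lipe was 10.04, 10.02, 9.94, 9.78 and 9.95, against 9.77, 9.29, 9.68, 9.10 and 9.26 in water, a difference of 0.53 ± 0.27 (SE, limma adjusted p 0.451). For each harvest, 0 of these 6 genes had a slope over dose rank with a limma adjusted p under 0.05, where 6.54% of genes did at 12 weeks and 0.376% at 1 week. In both harvests 0 of the 6 slopes had an unadjusted p under 0.05, where 24% of genes did at 12 weeks and 11% at 1 week.

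**Figure D4:**
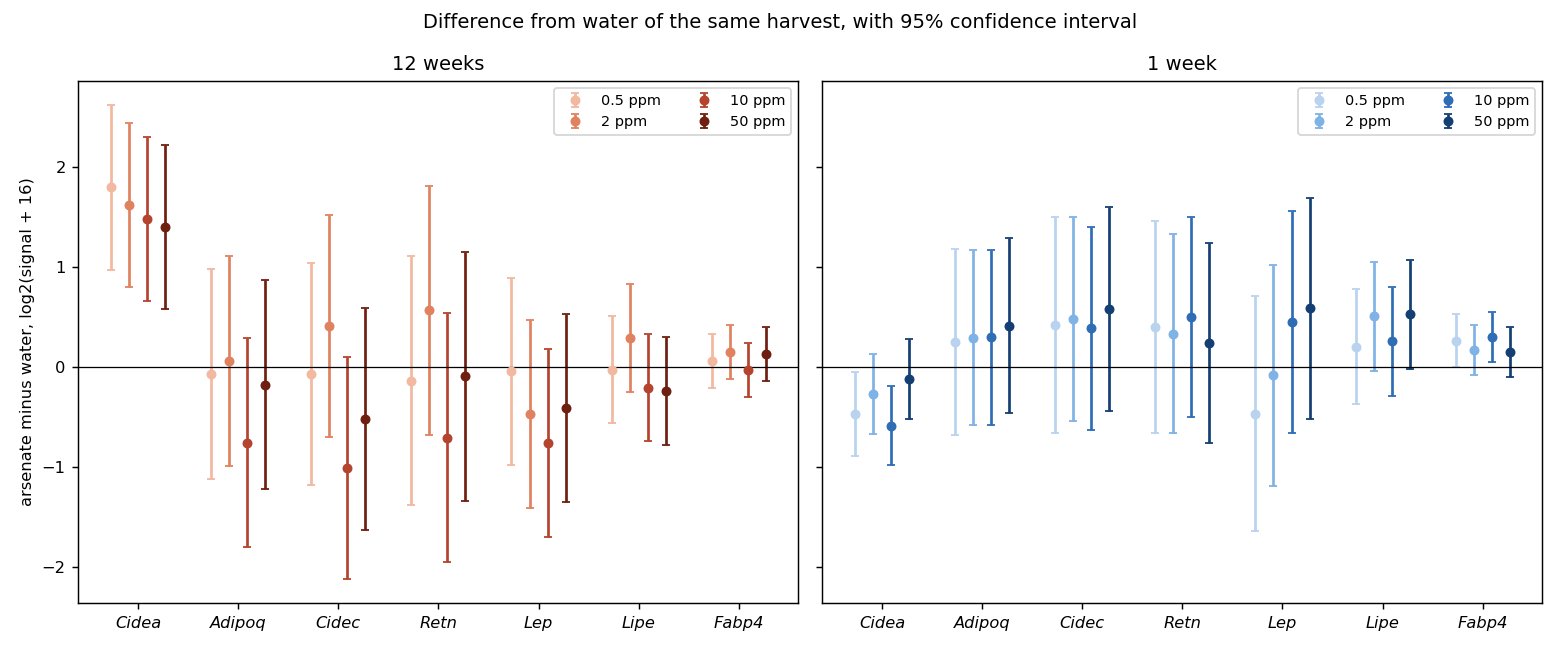
Difference of each arsenate dose from water of the same harvest, on the log2(signal + 16) scale with 95% confidence intervals from limma, at 12 weeks (left) and 1 week (right), for Cidea and the 6 other fat genes tested. At 12 weeks the Cidea differences lie between 1.40 and 1.80, while the intervals of the other genes include 0 at each dose.

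The longer list of 18 white fat genes, of which 15 were tested, had 0 genes called at each of the 8 doses and harvests. Its median change at 12 weeks was -0.04 at 0.5 ppm, 0.30 at 2 ppm, -0.50 at 10 ppm and -0.19 at 50 ppm, beside medians of 0.00 to -0.04 over all genes tested. At 1 week it was 0.20, 0.17, 0.26 and 0.22 at 0.5, 2, 10 and 50 ppm, beside 0.00 to 0.01 over all genes. Of the other fat lists, at 50 ppm for 12 weeks Klf15, a transcription factor of fat and muscle metabolism, rose by 1.37 ± 0.36 (SE, limma adjusted p 0.0346), and Aqp7, the glycerol channel of fat cells, fell by 1.20 ± 0.34 (SE, limma adjusted p 0.0436), where 2.29% of all genes rose and 1.77% fell. At 10 ppm for 1 week Cebpd, a C/EBP factor, fell by 0.77 ± 0.15 (SE, limma adjusted p 0.011) and Ppara, the fatty acid oxidation receptor, by 0.67 ± 0.16 (SE, limma adjusted p 0.046), where 0.65% of all genes fell. The rest of the 12 transcription factor genes and of the 19 fatty acid genes tested were not called in the dose comparisons.

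Between the harvests, 12 weeks over 1 week, 2 of the 6 white fat genes were lower over all doses, where 37.7% of all genes were called (18.4% higher and 19.3% lower). Retn fell by 0.87 ± 0.27 (SE, limma adjusted p 0.00827) and Fabp4 by 0.18 ± 0.06 (SE, limma adjusted p 0.0159). Retn ranged from 9.25 to 13.27 with a median of 11.11 over the 25 mice of 12 weeks, against 10.21 to 13.70 with a median of 12.13 over the 24 of 1 week, so the harvests overlapped. Cidec (-0.41 ± 0.25) and Adipoq (-0.41 ± 0.23) were not called, nor were Lep (0.40 ± 0.24) and Lipe (0.00 ± 0.13), with limma adjusted p of 0.156 to 0.998. Of the 15 white fat genes tested, 6 fell and 0 rose: Adig, Car3, Mrap and Thrsp beside Retn and Fabp4, with Thrsp, a regulator of fat synthesis, at -1.24 ± 0.32 (SE, limma adjusted p 0.00184). The median change of the 15 was -0.28, beside 0.01 over all genes. Adjusted for RNA integrity number 2 of the 15 were called, and 2 when adjusted for the poly-A spike level, and Retn and Fabp4 then had limma adjusted p of 0.085 to 0.314. With quantile normalization Fabp4 was at -0.039 (limma adjusted p 0.615) and 4 of the 15 were called.

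A comparison added after the data were seen set the harvests against each other at equal Adipoq level. Of the 5 other white fat genes, Lep was then higher at 12 weeks by 0.72 ± 0.17 (SE, limma adjusted p 0.000707) and Lipe by 0.20 ± 0.06 (SE, limma adjusted p 0.0141), while Retn fell by 0.41 ± 0.08 (SE, limma adjusted p 0.000117). Cidec, at 0.02 ± 0.08, and Fabp4, at -0.10 ± 0.05, were not called, with limma adjusted p of 0.855 and 0.0693, and 33.8% of all genes were called (16.4% higher and 17.5% lower). Lep, Lipe and Retn were each called in 49 of 49 fits that left out 1 array. Lep was a low signal, above the array's 40th percentile in 29 of 49 arrays and near the floor in mice of 1 week at 4.40 and 4.48, and its difference was 0.43 with an offset of 64 (limma adjusted p 0.00135) and 1.00 with an offset of 1. With the poly-A spike level, which was 9.46 to 11.17 at 12 weeks and 10.22 to 11.29 at 1 week, as a further covariate, Lep was at 0.67 (limma adjusted p 0.0937) and Lipe at 0.24 (limma adjusted p 0.115). Over the 4 arsenate doses alone Lep was at 0.69 (limma adjusted p 0.00449), Retn at -0.38 (limma adjusted p 0.00177) and Lipe at 0.17 (limma adjusted p 0.0822), where 26.7% of all genes were called. Age and time on the study differ together between the harvests and cannot be told apart.

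**Figure D5:**
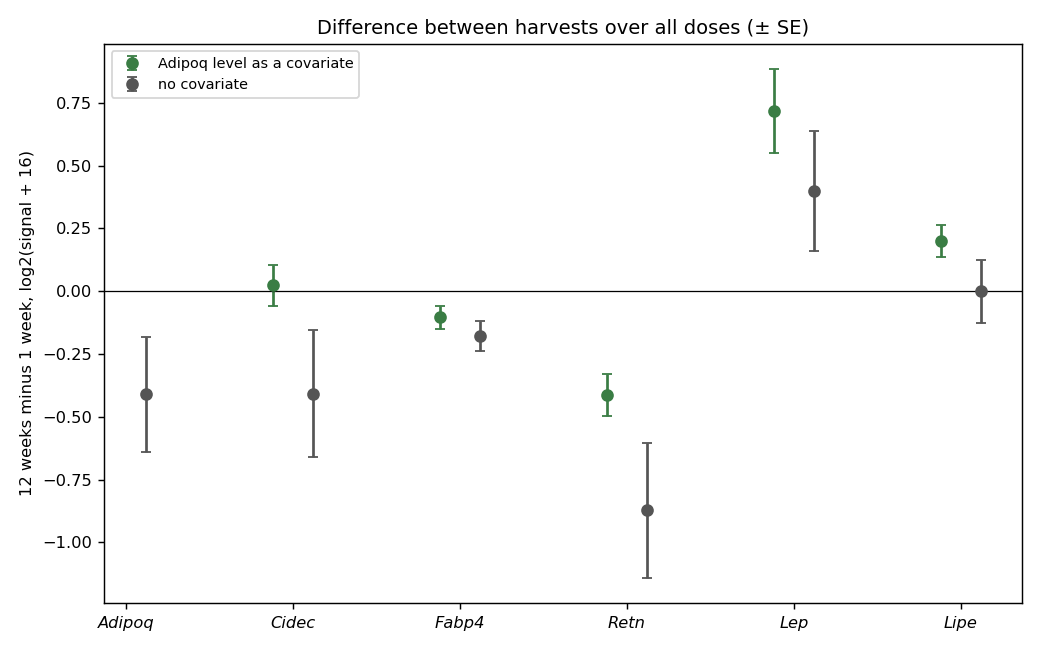
Difference between the harvests, 12 weeks minus 1 week, over all doses on the log2(signal + 16) scale with SEs, for 6 white fat genes, with the Adipoq level as a covariate (green) and without (grey). At equal Adipoq, Lep lies at 0.72 and Retn at -0.41, with Cidec at 0.02.

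Lists of other cell types moved with the harvest too. The liver list averaged 5.96 to 6.84 over the 12-week bladders and 6.20 to 10.58 over the 1-week ones, and the fibroblast list 12.06 to 13.18 and 13.16 to 13.61, while the urothelium list averaged 13.22 to 13.91 and 13.30 to 13.81. Within the 1-week harvest the liver list also differed between dose groups. Its group means were 8.87 in water and 8.2, 8.66, 7.48 and 6.57 at 0.5, 2, 10 and 50 ppm. Of the macrophage list, whose cells also make Fabp4, 6 of 8 genes fell and 0 rose (median change -0.31). Of the smooth muscle list 7 of 12 fell and 0 rose (median change -0.15), where 19.3% of all genes fell and 18.4% rose. Urothelium genes were called in both directions, among them Grhl3 at 0.40 and Upk2 at -0.14, which the list mean does not show. Their part in the differences between the harvests was not tested. Cidea itself was at -2.01 in water and at -0.07 ± 0.17 (SE) over the 4 arsenate doses. Both values use 12-week mice by which Cidea was chosen, water and arsenate alike, so they are a description.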

How the data were processed

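Bladder RNA of 49 mice was hybridised to Affymetrix Mouse430_2 arrays, per the labels' protocols, and summarised with GCOS 1.0, per the submitters' processing notes. The deposited values are linear intensities, 1 per probe set and array. Of 45101 probe sets, 34958 were assigned to a single gene. The analysis used log2(deposited intensity + 16). A gene was represented by its single-gene probe set of highest mean, and kept where this exceeded the array's own 40th percentile on 4 or more arrays. Dose groups were compared with water of the same harvest, and harvests over all arrays, with limma 3.58.1 in R 4.3.3 (lmFit, eBayes with trend, Benjamini-Hochberg over 14625 genes), tested on simulated data first. Correlations used 100000 permutations (numpy 2.4.6). The members and the gene lists were chosen with earlier results of these data known. The genes named are the members, the 10 genes most like Cidea and the 10 most like Adipoq by r, and called members of the lists, with exceptions stated. Array intensities carry no read depth, so the number of arrays limits the precision. Replicates are separate mice. Alternatives are given in the closing section.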

Additional observations from a re-analysis of the deposited data

Results flagged for a closer look

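For Cidea, the 12-week difference from water minus the 1-week difference was 2.26 at 0.5 ppm, 1.89 at 2 ppm, 2.07 at 10 ppm and 1.52 at 50 ppm. Each of these uses the 12-week water mice by which Cidea was chosen, 3 of which were near the floor, so the values are a description and no p is given. Among the mice given 2 ppm for 1 week, 1 had a Lipe level of 11.42, far from the nearest other mouse of its group at 9.85. Among the water mice of 1 week, 1 had a Ucp1 level of 6.08, with the nearest other at 4.93. Of 90 groups of values examined in this way 2 stood out, and chance alone marks about 1 in 20.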

How the results depend on the processing

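With an offset of 64 in place of 16, the Cidea difference was 1.06 at 0.5 ppm for 12 weeks, its water difference between harvests -1.23, and its interactions 1.43, 1.14 and 1.29 at 0.5, 2 and 10 ppm; with an offset of 1 the 0.5 ppm interaction was 2.98. These sizes depend on the offset because 3 water arrays lie near the floor. Array weights gave Cidea -0.58 at 10 ppm for 1 week (limma adjusted p 0.0435). Of the 6 other fat genes, 2 were called between harvests (Retn and Fabp4), against 1 with quantile normalization (Fabp4 was lost, at -0.039). After adjustment for RNA integrity number 1 was called, which was neither Retn nor Fabp4, and 0 after adjustment for the poly-A spike level. Both measures partly track harvest, and at 12 weeks the poly-A spike level also partly tracks dose. At equal Adipoq, quantile normalization gave -0.10 for Cidec, 0.016 for Fabp4 and 0.12 for Lipe (limma adjusted p 0.164), and the poly-A covariate gave -0.047 for Cidec, 0.67 for Lep and 0.24 for Lipe. The cause of these shifts was not tested. The r of Cidea with Ucp1 was 0.07 at 1 week alone, against -0.29 overall.

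Leaving out 1 array, Cidea at 12 weeks spanned 1.54 to 2.30 at 0.5 ppm, 1.36 to 2.12 at 2 ppm, 1.22 to 1.99 at 10 ppm and 1.14 to 1.90 at 50 ppm, each lowest without water replicate 4 and highest without water replicate 2. At 50 ppm the interaction spanned 1.26 to 2.02. At equal Adipoq, Cidec spanned -0.017 to 0.049 and Fabp4 -0.120 to -0.092, with Fabp4 called without some arrays (lowest limma adjusted p 0.0246). The count of the 6 genes called stayed at 0 for each dose and 2 between harvests. Replicate numbers did not pair the mice (median r of same-numbered mice 0.002); with the replicate block, Cidea at 50 ppm for 12 weeks was 1.40 and the counts of the 6 genes called were 0 for each dose and 2 between harvests. Cidea had 1 probe set, so a second could not be tried.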

Other observations

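Between the harvests, 12 weeks over 1 week and over all doses, 18.4% of all genes rose and 19.3% fell (37.7% called). Of 8 brown fat list genes tested beside Cidea, 2 rose and 2 fell. Slc27a2, a fatty acid transporter of liver and kidney, was higher by 2.32 ± 0.37 (SE, limma adjusted p 2.38e-06) and Ppargc1a, a coactivator of mitochondrial genes, by 0.31 (limma adjusted p 0.00626). Cox7a1 was at -0.40 (limma adjusted p 6.95e-07) and Cox8b at -0.97 (limma adjusted p 0.00584). Of 12 fat cell transcription factors, 6 rose and 1 fell, with Cebpd at 0.96, Klf15 at 0.61, Cebpb at 0.44 and Ppara at -0.28.

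Of 19 genes of fatty acid uptake and synthesis, 3 rose (Lpin1, Me1 and Scd2) and 4 fell (Agpat2 at -0.41, Fasn, the fatty acid synthase, at -0.38, Gpd1 at -0.96 and Scd1 at -0.56), a share near that of all genes. At equal Adipoq level Gpd1 was at -0.65 and Thrsp at -0.81, while Pnpla2 was at 0.24 (limma adjusted p 0.000313).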
